A study of Mus musculus with 10 samples.

Results

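Inhibitory interneuron genes and neuropeptides were followed in cultured mouse granule cell precursors, the cerebellar progenitors that give rise to excitatory granule neurons. The 8 genes were chosen by symbol: Sst and Npy, which encode the neuropeptides somatostatin and neuropeptide Y, Slc6a5, the neuronal glycine transporter, Gad1 and Slc32a1, which make GABA and load it into vesicles, Pvalb, the calcium buffer parvalbumin, Kit, a receptor tyrosine kinase, and Pax2, a transcription factor of cerebellar interneuron precursors. They and the lists of related genes were chosen with earlier results of these data known. Every probe set annotated to these symbols on the Affymetrix Mouse Genome 430 2.0 array was used. This gave 13 probe sets for 7 of the 8 genes, among 18193 genes named in all. No probe set carried the symbol Pax2 in the annotation used here, so Pax2 was not analysed here.

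The 4 groups of primary cultures were Bmi1 knockout with sonic hedgehog (Shh; 2 arrays, replicates 8 and 10), wild type with Shh (2 arrays, replicates 7 and 9), untreated Bmi1 knockout (3 arrays, replicates 2, 4 and 6) and untreated wild type (3 arrays, replicates 1, 3 and 5). Bmi1 is a subunit of a Polycomb complex that represses genes through chromatin, and Shh is the protein signal that drives granule cell precursors to divide. The study asked what part Bmi1 plays in the change of gene expression that Shh brings about. All cultures came from cerebella of pups at postnatal days 5 to 7, freed of meninges and vessels, and all were kept for 24 hours with 10% fetal calf serum and 20 mM KCl in the medium. Shh was given for 24 hours at a concentration labelled as 3 mg/ml. The strain, the deleted part of Bmi1, the animals per culture and the total time in culture of the untreated cells are not given in the sources used here. Shh and time in culture therefore cannot be told apart, and p-values cover only the variation among these arrays. Wild type replicate 3 counts as untreated by its title and characteristics, although its treatment note names Shh with a proviso.

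In the cerebellum, inhibitory neurons release GABA, glycine or both. Gad1 encodes an enzyme that makes GABA from glutamate, Slc32a1 encodes the carrier that fills synaptic vesicles with GABA and glycine, and Slc6a5 returns glycine to glycinergic terminals such as those of Golgi cells. Pvalb is made by Purkinje cells and by molecular layer interneurons, and Kit is made by molecular layer interneurons, while Purkinje cells make its ligand. Granule cells are glutamatergic, and these genes are not markers of that lineage.

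The values are MAS5 signals, a linear measure of a probe set's brightness in arbitrary units, scaled by the authors so that arrays share a trimmed mean. Levels of different probe sets cannot be set against each other. Bmi1 itself averaged 3424 ± 11.8 with Shh in knockout and 4340.0 ± 248 in wild type cultures (SD, n = 2 each), and 3610.1 ± 259 in untreated knockout and 3958 ± 290.0 in untreated wild type cultures (SD, n = 3 each). Its average genotype difference did not pass the test (log2 -0.24, limma adjusted p = 0.186), so these probe sets, which may lie outside the deleted part, did not check the genotype labels. The granule lineage markers summed to 42696 to 44868 with Shh in knockout and 44990 to 46169 in wild type cultures. Untreated, they summed to 48146 to 53410 in knockout and 47369 to 60439 in wild type, above every Shh array. The 18S control was brightest on knockout replicate 6 (2260.1) and wild type replicate 1 (993), against 217 to 595 on the other 8 arrays. The median signal was 66.6 to 72.1 on the Shh arrays, against 84.4 to 90.9 on the untreated ones. Wild type replicate 3 had an endothelial marker sum of 6266, against 6313 to 8029 on the other untreated arrays and 302 to 385 on the Shh arrays.

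The promoter windows of the 3 genes that differed most by genotype, Sst, Npy and Slc6a5, are shown because Sst is a textbook target of the cyclic AMP response element, whose letters are TGACGTCA. The windows run from 250 bases before to 50 bases after the start in RefSeq GRCm38.p6, 5′ to 3′ on the gene's strand. They lie at chr16:23890795-23891094 on the minus strand for Sst, chr6:49822460-49822759 on the plus strand for Npy and chr7:49910049-49910348 on the plus strand for Slc6a5. Capitals mark TGACGTCA or its shorter core TGACG, searched on both strands.
Sst: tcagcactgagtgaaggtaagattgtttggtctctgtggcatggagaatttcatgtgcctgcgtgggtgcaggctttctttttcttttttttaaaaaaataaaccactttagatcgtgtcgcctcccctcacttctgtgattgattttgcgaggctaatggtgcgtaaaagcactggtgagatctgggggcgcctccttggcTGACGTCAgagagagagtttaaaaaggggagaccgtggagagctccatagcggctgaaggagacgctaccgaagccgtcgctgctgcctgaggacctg
Npy: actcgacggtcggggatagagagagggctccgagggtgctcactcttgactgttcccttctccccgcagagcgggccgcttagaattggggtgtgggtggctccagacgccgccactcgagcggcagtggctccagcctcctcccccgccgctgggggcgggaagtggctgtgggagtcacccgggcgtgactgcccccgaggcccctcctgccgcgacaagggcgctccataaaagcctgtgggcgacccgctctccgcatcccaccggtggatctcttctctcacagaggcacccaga
Slc6a5: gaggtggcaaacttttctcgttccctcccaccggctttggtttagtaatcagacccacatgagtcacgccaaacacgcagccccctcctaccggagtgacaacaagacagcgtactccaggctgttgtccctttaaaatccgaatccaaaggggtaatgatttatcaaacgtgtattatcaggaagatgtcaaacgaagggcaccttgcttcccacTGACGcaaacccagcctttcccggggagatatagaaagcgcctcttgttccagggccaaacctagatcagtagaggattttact
The whole element begins at position -48 of the Sst window and is absent from the printed Npy and Slc6a5 windows. The core begins at -34 in the Slc6a5 window, and in Sst it occurs only within the whole element, which it overlaps. Of 32851 promoter windows of this length, 588 (1.79%) hold the whole element and 6837 (20.8%) hold the core. All 8 genes matched the table, with 13 windows, and no other window of theirs held either motif. A match of letters is a description and does not show binding.

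Knockout cultures had higher signals of the 2 neuropeptide genes and of the glycine transporter than wild type cultures on average over both conditions, and their groups did not overlap with or without Shh. The ratio of 3′ to 5′ signal of the Actb control, a sign of RNA quality, was also higher on knockout arrays. It was 1.489 and 1.427 with Shh in knockout against 1.425 and 1.393 in wild type cultures, and 1.42, 1.48 and 1.69 untreated in knockout against 1.34, 1.34 and 1.38 in wild type. The same ratio of the Gapdh control overlapped between genotypes. With Shh it was 0.823 and 0.930 in knockout against 0.852 and 0.880 in wild type cultures. Untreated, it was 0.909, 0.861 and 0.997 in knockout against 0.906, 0.830 and 0.874 in wild type. The part of RNA quality in the genotype differences was not tested. Gad1, Slc32a1, Pvalb and Kit did not pass the test for genotype. The comparison asked how Bmi1 loss bore on these transcripts, and it was fitted over all 11405 genes that passed a minimum of brightness. All 7 measured genes passed that filter through their brightest probe set.

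Sst, the somatostatin gene (probe set 1417954_at; chr16:23889573-23891342), encodes a peptide that many GABAergic neurons release with GABA. With Shh, its signal was 484 and 773 in knockout cultures, against 177 and 111 in wild type cultures. Without Shh, it was 479.6, 461 and 450.0 in knockout cultures, against 77.4, 218 and 126 in wild type cultures. All 5 knockout arrays lay above all 5 wild type arrays, and the 3 untreated knockout arrays lay within a narrow range (464 ± 15.0, against 140.5 ± 71.7 in wild type, SD, n = 3 each). The average difference over both conditions was 3.96-fold (95% interval 2.58 to 6.10; log2 1.99, SE 0.27, limma adjusted p = 0.00853). Taken singly, the difference was log2 2.12 with Shh (SE 0.43, limma adjusted p = 0.0738) and 1.85 without (SE 0.35, limma adjusted p = 0.0868), neither past the threshold of 0.05. The average kept its call when any of the 10 arrays was left out, with limma adjusted p up to 0.044, and lost it where each probe set was tested on its own (0.0794). The difference with Shh passed without wild type replicate 1 (limma adjusted p = 0.0325) or 3 (0.0282). Without wild type replicate 3, whose Sst signal was the highest of the wild type arrays, the untreated difference was log2 2.23 and passed (limma adjusted p = 0.0217).

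Npy (1419127_at; chr6:49822710-49829507) encodes neuropeptide Y, which many forebrain interneurons release. With Shh, its signal was 113 and 153 in knockout cultures, against 56.1 and 75.2 in wild type cultures. Without Shh, it was 397, 251 and 333 in knockout cultures, against 125, 208 and 99.8 in wild type cultures. Within each condition every knockout array lay above every wild type array, while the Shh-treated knockout arrays overlapped the untreated wild type ones. The average difference was 2.17-fold (95% interval 1.54 to 3.07; log2 1.12, SE 0.22, limma adjusted p = 0.0439). That call was lost with consecutive replicate numbers as a block (limma adjusted p = 0.0934) and without both arrays of highest 18S signal (0.187). Quantile scaling (limma adjusted p = 0.0562), no filter on dim genes (0.133) and the median of all probe sets (0.0694) lost it too. So did testing each probe set on its own (limma adjusted p = 0.192). The call was also lost when any array but wild type replicate 3 was left out, with limma adjusted p up to 0.146. The difference was log2 1.02 with Shh (limma adjusted p = 0.314) and 1.22 without (limma adjusted p = 0.170), and the untreated value passed without replicate 3 (log2 1.52, limma adjusted p = 0.0459).

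Slc6a5 (1442177_at; chr7:49906984-49963864) encodes the transporter that marks glycinergic neurons. With Shh, its signal was 198 and 169 in knockout cultures, against 70.5 and 51.3 in wild type cultures. Without Shh, it was 215, 146 and 208 in knockout cultures, against 86.3, 113 and 103 in wild type cultures. All 5 knockout arrays lay above all 5 wild type arrays. The average difference was 2.38-fold (95% interval 1.89 to 2.99; log2 1.25, SE 0.15, limma adjusted p = 0.00353), and it kept its call with any array left out (limma adjusted p up to 0.0223), but not with the median of both its probe sets (log2 0.67, limma adjusted p = 0.157). With Shh the difference was 3.04-fold (95% interval 2.13 to 4.34, log2 1.60, SE 0.23, limma adjusted p = 0.0165), a call that was lost with the block (limma adjusted p = 0.0694) and without replicates 8, 9 or 10 (limma adjusted p up to 0.128). Without Shh the difference was log2 0.90 (SE 0.19, limma adjusted p = 0.122). A further probe set, 1425992_at, was at the floor of 20.9 on 7 of 10 arrays, so it gives no check of these values.

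**Figure D1:**
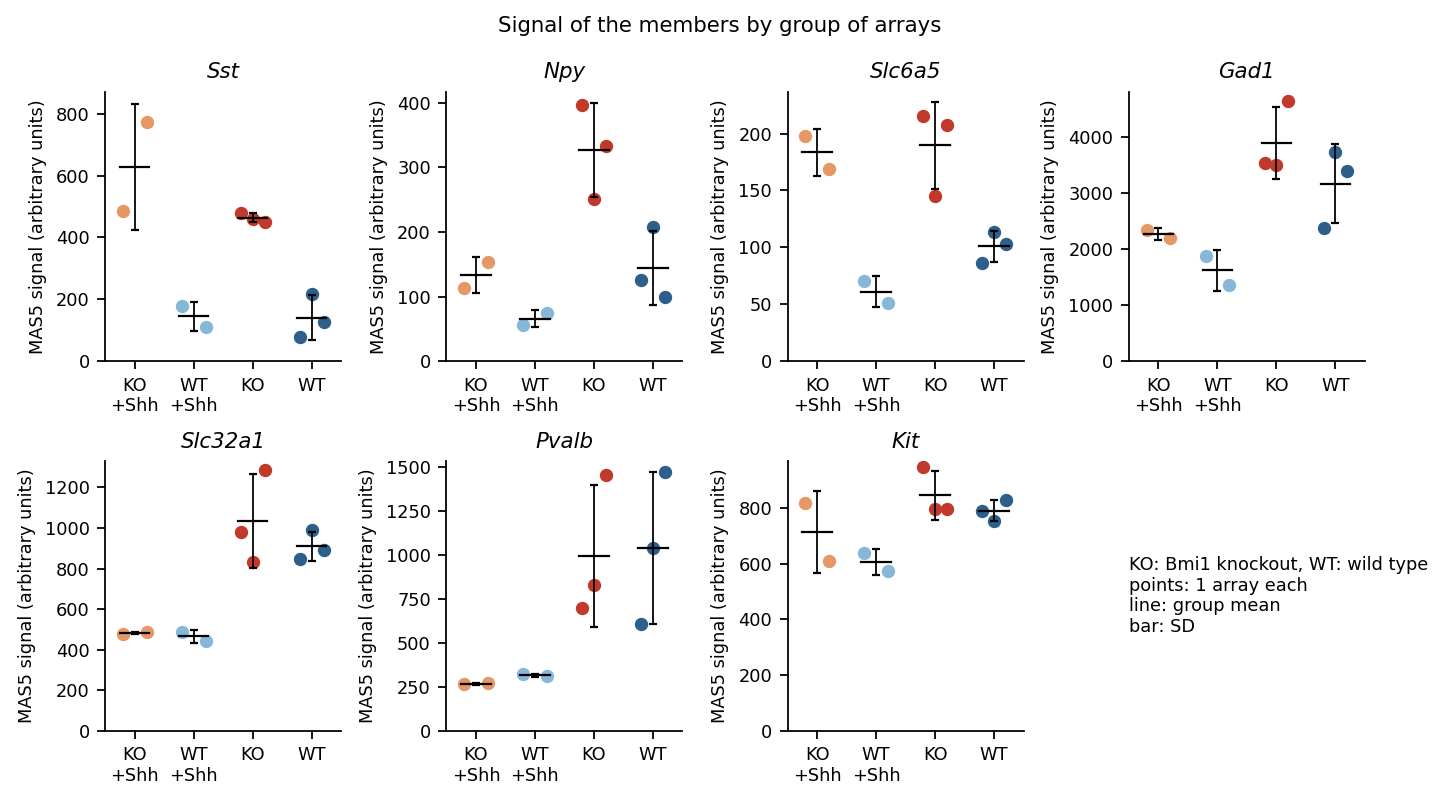
MAS5 signal (arbitrary units, linear axis from 0) of the brightest probe set of each of the 7 measured genes, by group, with 1 point per array, the group mean as a line and the SD as a bar. In Sst and Slc6a5 all 5 knockout points lie above all 5 wild type points; in Pvalb and Slc32a1 the 4 Shh points lie below the 6 untreated ones.

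Gad1 (1416561_at; chr2:70561303-70602014), the GABA-synthesising enzyme GAD67, had signals of 2337 and 2184 in knockout and 1871 and 1362 in wild type cultures with Shh. Untreated, it had 3537, 3498 and 4629 in knockout and 2374, 3728 and 3381 in wild type cultures. The knockout arrays were above the wild type ones with Shh and overlapped them without it. The average difference was 1.33-fold (95% interval 1.04 to 1.69, limma adjusted p = 0.298). The dimmer probe set 1416562_at gave log2 0.41, the same as the log2 0.41 of the brighter one.

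Slc32a1 (1422756_at; chr2:158607260-158615747), the vesicular carrier of GABA and glycine, had signals of 479 and 486 in knockout and 489 and 444 in wild type cultures with Shh. Untreated, it had 981, 830.2 and 1286 in knockout and 847, 988 and 891 in wild type cultures. The genotypes overlapped in each condition, and the average ratio was 1.08 (95% interval 0.896 to 1.30, limma adjusted p = 0.799). Its 3 other probe sets were dim, at the floor on 10, 9 and 2 of the 10 arrays.

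Pvalb (1417653_at; chr15:78191112-78206400), parvalbumin, had signals of 264 and 273 in knockout and 321 and 310.4 in wild type cultures with Shh. Untreated, it had 696, 831 and 1457 in knockout and 607, 1039.9 and 1473 in wild type cultures. The untreated genotypes overlapped over nearly their whole range, and the knockout arrays with Shh were the lower ones. The average ratio was 0.907 (95% interval 0.601 to 1.37, limma adjusted p = 0.895), an interval that still allows a difference of either sign.

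Kit (1452514_a_at; chr5:75574987-75656722), the receptor for Kit ligand, had signals of 817 and 609.5 in knockout and 639 and 574 in wild type cultures with Shh. Untreated, it had 948, 795 and 796 in knockout and 788, 754 and 829 in wild type cultures. These groups overlapped, and the average ratio was 1.12 (95% interval 0.953 to 1.30, limma adjusted p = 0.580). Its dimmer probe set 1415900_a_at gave log2 0.38 with Shh and -0.26 without, and neither value passed. Markers of melanocytes and mast cells, which also make Kit, summed to between 170 and 494 over 11 genes, none of which passed the filter.

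The members were chosen with earlier results of these data known, so the counts below describe them and are no test of the set. Across the 7 genes, 1 rose in knockout cultures with Shh (Slc6a5), where 0.614% of all genes were called higher. Without Shh 0 of 7 were called by limma, where 0.377% of all genes were called in either direction, although 3 had an unadjusted p under 0.05, as had 8.68% of all genes. With a trended, robust prior in limma, Sst passed both with Shh (adjusted p = 0.0235) and without (adjusted p = 0.0221). For the average over both conditions 3 of 7 rose, where 1.22% of all genes were called higher. The median difference of the 7 genes was log2 0.50 with Shh and 0.31 without, beside 0.01 and 0.02 over all genes tested. Groups did not overlap, with knockout higher, for 4 of 7 with Shh (22.3% of all genes) and for 3 of 7 without (7.62%). With Shh the knockout arrays were the lower ones for 1 of 7, Pvalb (16.8% of all genes). All 5 knockout arrays lay above the wild type arrays of the same condition, with and without Shh, for 3 of 7 (3.38%). Since their groups did not overlap, Sst, Npy and Slc6a5 were bound to be higher in knockout in 5 of 5 comparisons of consecutively numbered arrays. That count therefore adds no further support. The smallest of these differences was log2 0.27 for Npy (replicates 4 and 3) and the largest 2.80 for Sst (replicates 10 and 9).

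**Figure D2:**
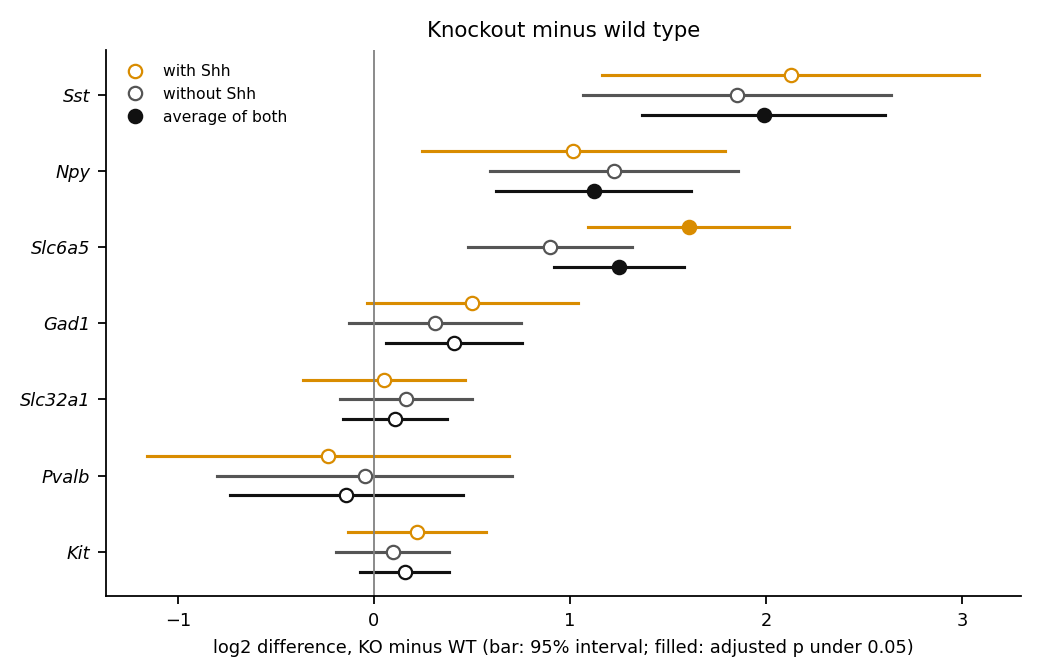
Log2 difference between knockout and wild type cultures (horizontal axis) for the 7 genes, with Shh, without Shh and averaged, with 95% intervals and filled points where the limma adjusted p was under 0.05. The filled averages are those of Sst (1.99), Npy (1.12) and Slc6a5 (1.25), and the intervals of Slc32a1, Pvalb and Kit cross 0.

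Some markers of other cell types moved with genotype. Over the average, 3 of 10 microglial markers fell in knockout cultures (C1qa, C1qb and C1qc), where 0.324% of all genes were called lower, and 2 of 7 oligodendrocyte lineage markers rose (Sox10 and Cspg4), where 1.22% were called higher. All 10 microglial markers had differences below 0 with Shh, without it and on average, and C1qa also fell with Shh. In knockout cultures with Shh, Olig1, Sox10 and Cspg4 rose (3 of 7 oligodendrocyte lineage markers), where 0.614% of all genes were called higher. So did the Bergmann glia gene Gdf10 and Sparcl1 (2 of 9 astrocyte and Bergmann glia markers). Of 7 tested fibroblast and meningeal genes 1, Igf2, rose in knockout cultures with Shh and on average. With Shh it was the only gene of that list above 0 (median of the list log2 -0.26). On average 2 of the 7 were above 0 (median log2 -0.06). With the block, C1qb (limma adjusted p = 0.0876) and Sox10 (0.090) lost their average calls, and Sox10 (0.0882), Gdf10 (0.121) and Sparcl1 (0.0794) theirs with Shh. The summed microglial signal was 3050 to 4410 with Shh in knockout cultures against 5035 to 5534 in wild type, and 6211 to 6998 untreated in knockout against 7473 to 10938 in wild type. The oligodendrocyte lineage sum was 11524 to 14252 with Shh in knockout cultures against 10206 to 10783 in wild type, and 19574 to 25685 untreated in knockout against 24138 to 27058 in wild type. None of the 8 measured Purkinje markers passed for genotype. Of these, 6 were above 0 with Shh and 7 both without it and on average (median log2 0.26, 0.21 and 0.24). All 9 astrocyte and Bergmann glia markers were above 0 with Shh, 4 without and 7 on average. Unipolar brush cell and excitatory nuclear neuron markers summed with Shh to 3802 to 4885 in knockout against 2896 to 3193 in wild type. Untreated, they summed to 3966 to 4986 in knockout against 3815 to 4407 in wild type. The part of these markers in the differences of Sst, Npy and Slc6a5 was not tested. In cultures of mixed cells, fewer cells of a type and less RNA per cell cannot be told apart.

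Shh-treated cultures had lower signals of most of these genes than untreated cultures of the same genotype, while Sst did not pass. Pvalb and Slc32a1 fell in both genotypes, as did Gad1 and Npy, and Slc6a5 fell in wild type cultures. In knockout cultures 4 of 7 genes fell, where 17% of all genes were called lower, and in wild type cultures 5 of 7 fell, where 19.8% were called lower. The median Shh difference of the 7 genes was log2 -0.77 in knockout and -0.96 in wild type cultures, beside -0.01 over all genes in each. Groups did not overlap, with Shh lower, for 4 of 7 in knockout (29.5% of all genes) and 6 of 7 in wild type (31.2%). Both Shh arrays lay above the untreated ones for 1 of 7 in knockout, Sst (26.1% of all genes).

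Pvalb averaged 268 ± 5.72 with Shh and 995 ± 406 untreated in knockout cultures, and 316 ± 7.66 with Shh and 1040.0 ± 433 untreated in wild type cultures (SD, n = 2 with Shh and n = 3 untreated). All 4 Shh arrays lay below all 6 untreated arrays, and the spread was far wider without Shh. The fall was log2 -1.82 in knockout (SE 0.37, limma adjusted p = 0.00665) and -1.63 in wild type cultures (limma adjusted p = 0.00923), and the wild type value just missed the threshold without wild type replicate 9 (limma adjusted p = 0.0534).

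Slc32a1 fell with Shh by log2 -1.07 in knockout (limma adjusted p = 0.00174) and -0.96 in wild type cultures (limma adjusted p = 0.0024), and both calls held with any array left out. All 4 Shh arrays lay below all 6 untreated ones. With the median of its 4 probe sets, 3 of them dim, the direction turned and both calls were lost (log2 0.34 in knockout and 0.40 in wild type). The dim probe set 1456457_at was higher on the Shh arrays in wild type cultures (log2 0.81, limma adjusted p = 0.351 over all probe sets). Gad1 fell by log2 -0.77 in knockout (limma adjusted p = 0.0275) and -0.96 in wild type cultures (limma adjusted p = 0.00879). The Gad1 call in knockout was lost without replicates 6, 8 or 10 (limma adjusted p up to 0.127), and the one in wild type without replicate 9 (limma adjusted p = 0.0831). The dimmer Gad1 probe set gave log2 -0.59 in knockout and -1.10 in wild type cultures, neither past the threshold over all probe sets.

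Npy fell with Shh to 133 ± 28.2 in knockout cultures, against 327 ± 73.1 untreated (log2 -1.29, SE 0.31, limma adjusted p = 0.0146). It fell to 65.7 ± 13.5 in wild type cultures, against 144 ± 56.8 untreated (log2 -1.08, limma adjusted p = 0.0258; SD, n = 2 with Shh and n = 3 untreated). The call in knockout was lost without replicate 8 (limma adjusted p = 0.110), and that in wild type without replicates 3, 7 or 9 (limma adjusted p up to 0.155). Slc6a5 fell in wild type cultures (60.9 ± 13.6 with Shh against 101 ± 13.7 untreated; log2 -0.74, limma adjusted p = 0.0236), a call that was lost without replicates 3, 5 or 9 (limma adjusted p up to 0.186). With quantile scaling, the wild type calls of Slc6a5 (log2 -0.43, limma adjusted p = 0.169) and Npy (log2 -0.71, limma adjusted p = 0.115) were lost. In knockout cultures the level of Slc6a5 was 183 ± 20.4 with Shh and 189 ± 38.2 untreated (log2 -0.03, limma adjusted p = 0.931).

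Sst averaged 628 ± 204 with Shh and 464 ± 15.0 untreated in knockout cultures (log2 0.40, 95% interval of the ratio 0.718 to 2.43, limma adjusted p = 0.483). In wild type cultures it averaged 144 ± 47.0 with Shh and 140.5 ± 71.7 untreated (log2 0.13, limma adjusted p = 0.831). Its groups overlapped in wild type cultures, and in knockout cultures both Shh arrays lay above the untreated ones. By its brightest probe set, Kit was lower with Shh by log2 -0.26 in knockout (limma adjusted p = 0.212) and -0.38 in wild type cultures (limma adjusted p = 0.0655). The wild type value passed without replicate 8 or 10 (lowest limma adjusted p = 0.0364). The dimmer Kit probe set 1415900_a_at went the other way in knockout (log2 0.16) and was lower in wild type cultures (log2 -0.48). Neither of its values passed the threshold over all probe sets.

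**Figure D3:**
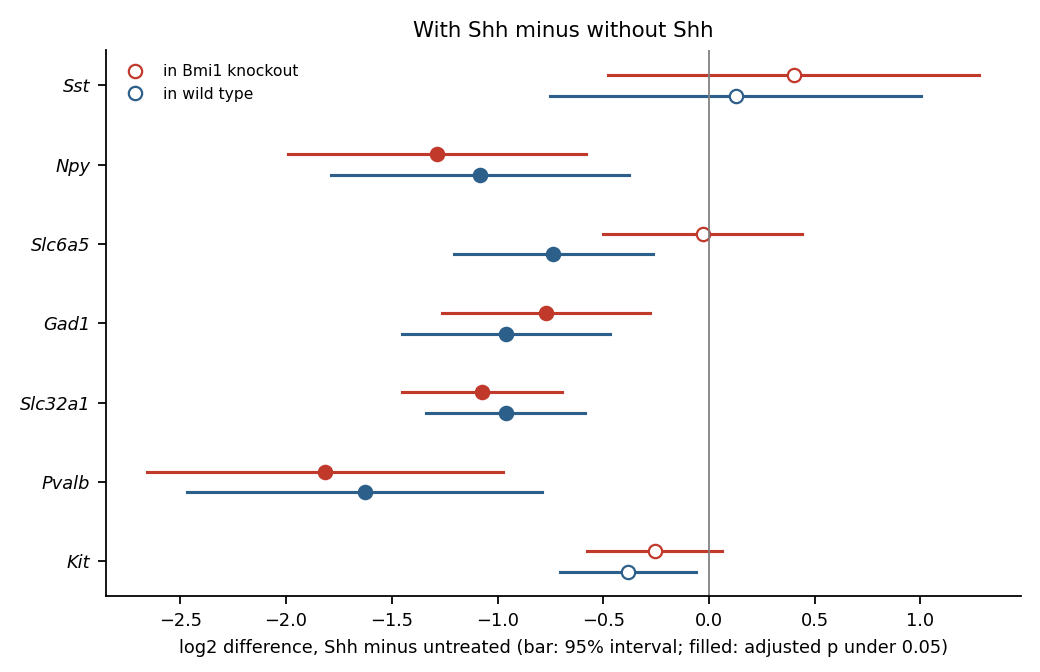
Log2 difference between Shh-treated and untreated cultures (horizontal axis) for the 7 genes in knockout and wild type, with 95% intervals and filled points where the limma adjusted p was under 0.05. Pvalb lies furthest left (-1.82 and -1.63), Slc6a5 is filled in wild type only (-0.74, against -0.03 in knockout, a difference that did not pass its own test), and the Sst intervals cross 0.

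The size of the Shh difference was not shown to depend on genotype. The interaction was called for 0 of 7 genes by limma, where 0.00877% of all genes were called, and 1 of 7 had an unadjusted p under 0.05, as had 4.92% of all genes. That gene was Slc6a5, with log2 0.71 (SE 0.29, unadjusted p = 0.0394, limma adjusted p = 0.981).

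Markers of Purkinje cells, which are GABAergic and make Gad1, Slc32a1 and Pvalb, fell with Shh together with these genes. With Shh, 17% of all genes were called lower in knockout and 19.8% in wild type cultures. All 8 of the 8 measured and tested Purkinje markers fell in both genotypes. Their summed signal was 7393 to 9421 with Shh against 27338 to 49766 untreated in knockout cultures, and 7007 to 7419 with Shh against 22888 to 38446 untreated in wild type cultures. Examples were Calb1, a calcium buffer, at log2 -2.43 in knockout and -2.46 in wild type, and Slc1a6, the Purkinje glutamate transporter, at -4.42 in knockout and -3.75 in wild type. Markers of other cells moved too, with 6 of 6 tested endothelial and pericyte markers and 7 of 9 astrocyte and Bergmann glia markers falling in both genotypes. The endothelial sum was 302 to 309 with Shh against 6313 to 8029 untreated in knockout cultures, and 324 to 385 with Shh against 6266 to 7287 untreated in wild type cultures. Other lists moved in both directions, where 11% of all genes in knockout and 14% in wild type were called higher. Of 10 microglial markers 5 fell and 2 rose in knockout, and 5 fell and 1 rose in wild type. Of 7 oligodendrocyte lineage markers 4 fell and 1 rose in knockout, and 5 fell and 1 rose in wild type. Of 7 fibroblast and meningeal genes 5 fell and 1 rose in knockout, and 4 fell and 1 rose in wild type. Of the 9 tested granule lineage markers 1, Mfap4, fell. The part of these cell types in the Shh differences was not tested.

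**Figure D4:**
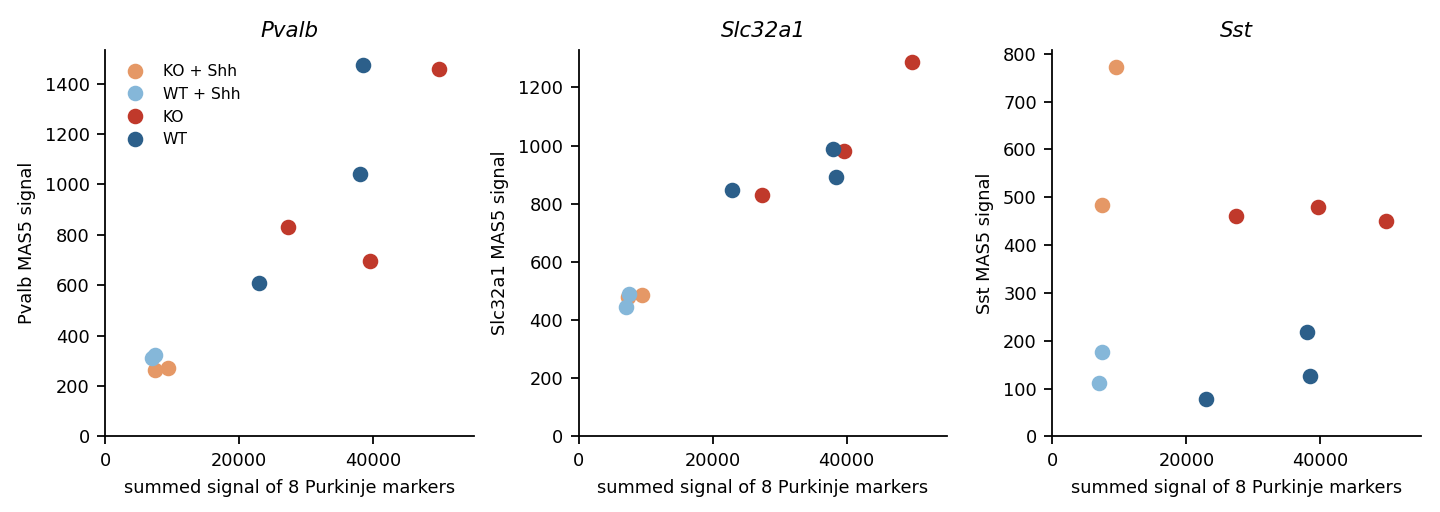
MAS5 signal of Pvalb, Slc32a1 and Sst (vertical axes) against the summed signal of 8 Purkinje markers (horizontal axes), with 1 point per array, coloured by group. The 4 Shh arrays sit at sums of 7007 to 9421 and the 6 untreated ones at 22888 to 49766. Sst separates by genotype on both sides.

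Further genes of inhibitory transmission were read from a list. Of 9 other tested genes for synthesis, packaging, uptake and breakdown of GABA and glycine, 1 rose in knockout cultures on average. This stands beside 1.22% of all genes called higher. The gene was Gad2, the synaptic GABA-making enzyme GAD65. Its signal was 191 and 199 with Shh in knockout cultures against 49.1 and 102 in wild type, and 395, 359.6 and 502 untreated in knockout against 177, 235 and 254 in wild type. Knockout arrays were the higher ones in each condition (average log2 1.19, SE 0.20, limma adjusted p = 0.0253), but the call was lost without replicates 1, 2, 6, 8 or 10 (limma adjusted p up to 0.0883). With Shh, 7 of these 9 genes fell in each genotype, where 17% of all genes in knockout and 19.8% in wild type were called lower. The GABA transporter gene Slc6a11 fell by log2 -2.50 in knockout and -3.01 in wild type, and Abat, which breaks GABA down, by -1.11 and -1.45. The glycine transporter gene Slc6a9 fell by log2 -0.77 in knockout and -1.46 in wild type cultures. Slc6a11 and Slc6a9 are known from astrocytes.

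Among 10 tested transcription factors of inhibitory lineages, 2 rose in knockout cultures on average, where 1.22% of all genes were called higher. Nr2f2, a nuclear receptor, was at log2 0.90 (limma adjusted p = 0.0423, 0.101 with the block), and Tfap2a was at 0.43 (limma adjusted p = 0.0318, 0.0723 with the block). Both calls were lost in 8 of the 10 fits that left out 1 array, kept only without replicate 1 or 3. With Shh, 6 of 10 fell in each genotype, beside the same 17% and 19.8% of all genes. Ptf1a, required for the GABAergic lineages of the mouse cerebellum, fell by log2 -1.70 in knockout and -1.85 in wild type, Lhx5 by -1.32 and -1.03, and Neurog1 by -2.58 and -2.66. Lhx1 fell in wild type cultures (log2 -0.66).

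Of 12 other tested neuropeptide and granin genes, 3 rose in knockout cultures on average and 0 fell. Over all genes, 1.22% were called higher on average and 0.324% lower. Pnoc, the precursor of nociceptin, had signals of 1559 and 2377 with Shh in knockout cultures against 532 and 711 in wild type. Untreated, it had 842, 802 and 804 in knockout against 302, 233 and 236 in wild type. Its groups were well apart, and it passed with Shh (log2 1.65, limma adjusted p = 0.0111) and without (1.68, limma adjusted p = 0.00407), the first of these calls being lost without replicate 7 (limma adjusted p = 0.0631) and with only the arrays compared (0.191). The untreated Pnoc call was lost without both arrays of highest 18S signal (limma adjusted p = 0.0539), and both calls where each probe set was tested on its own (0.0686 with Shh and 0.0564 without). Adcyap1, the precursor of the peptide PACAP, had signals of 163 and 199 with Shh in knockout cultures against 80.7 and 67.9 in wild type. Untreated, it had 212, 206 and 231 in knockout against 107, 121 and 104 in wild type. All 5 knockout arrays lay above all 5 wild type ones, and the average was log2 1.13 (limma adjusted p = 0.000391). The single-condition calls of Adcyap1 were log2 1.28 with Shh (limma adjusted p = 0.00474, 0.0526 with the block) and 0.97 without (limma adjusted p = 0.00761, 0.0913 with the block). The call without Shh was lost also without replicate 6 (limma adjusted p = 0.0589) and without both arrays of highest 18S signal (0.169). It was lost too where each probe set was tested on its own (limma adjusted p = 0.0549). The call with Shh was lost with only the arrays compared (limma adjusted p = 0.132). Cartpt, the precursor of CART peptides, differed by log2 1.25 on average (limma adjusted p = 0.0439), a call kept only without replicate 1 or 5 among the 10 fits that left out 1 array.

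**Figure D5:**
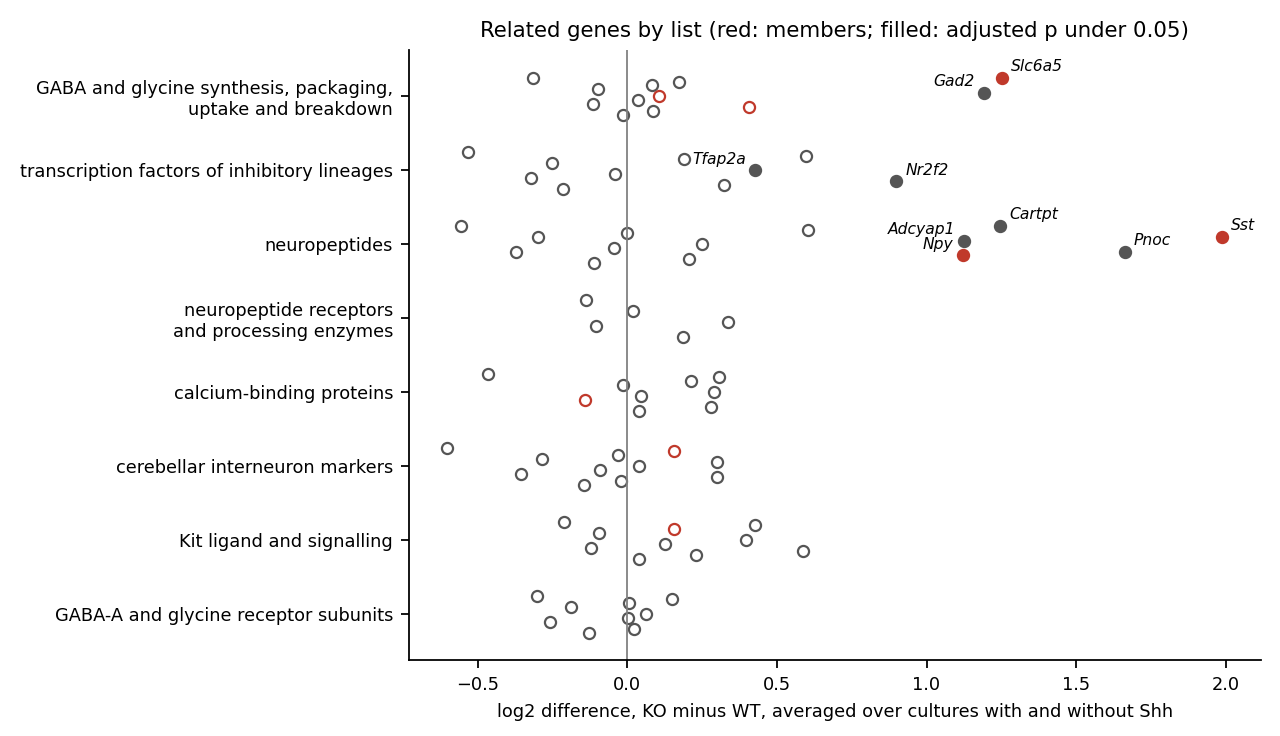
Log2 difference between knockout and wild type cultures averaged over both conditions (horizontal axis) for the tested genes of 8 lists, with members in red and filled points where the limma adjusted p was under 0.05. The filled points lie in the lists of neuropeptides, GABA and glycine genes and transcription factors, all of them right of 0.

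With Shh, the neuropeptide genes moved in both directions. In knockout cultures 6 of 12 rose and 3 fell, where 11% of all genes were called higher and 17% lower. In wild type cultures 4 rose and 5 fell, where 14% were called higher and 19.8% lower. Vgf rose by log2 2.06 in knockout and 1.46 in wild type, Cartpt by 1.76 and 2.74, Pnoc by 1.24 and 1.27, and Tac1, the substance P precursor, by 1.19 and 2.46. Grp fell by log2 -1.71 in knockout and -1.61 in wild type. Penk, the enkephalin precursor, fell by log2 -0.92 in knockout (limma adjusted p = 0.0431, 0.0641 with the block) and -1.61 in wild type.

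The receptors of these peptides gave fewer values. The counts of falls with Shh in the lists that follow stand beside 17% of all genes called lower in knockout and 19.8% in wild type cultures. Of 5 tested receptor and processing genes, 0 passed for genotype by limma in any of the 3 genotype comparisons, and the only tested somatostatin receptor gene, Sstr2, differed by log2 -0.07 with Shh and -0.13 without. Sstr1, Sstr3, Sstr4, Sstr5, Npy1r, Npy2r and Npy5r were not tested. Of 9 tested GABA-A and glycine receptor subunit genes none passed for genotype, while 4 fell with Shh in knockout and 5 in wild type cultures, among them Gabrg1 (log2 -2.48 in knockout and -2.47 in wild type). Of 9 other tested genes of Kit signalling none passed for genotype. The ligand gene Kitl fell with Shh by log2 -1.13 in knockout (limma adjusted p = 0.0223) and -1.45 in wild type cultures (limma adjusted p = 0.00601). Of 8 other calcium-binding protein genes 5 fell and 1 rose with Shh in each genotype, the riser being Hpca (log2 0.54 in knockout and 0.71 in wild type). Among those that fell was Calb2, calretinin, at log2 -1.40 in knockout and -1.05 in wild type. Of 10 further cerebellar interneuron markers 2, Nxph1 and Rbms3, fell with Shh in each genotype, a share near that of all genes, and none passed for genotype.

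The 7 genes did not share a single pattern over the 10 arrays. Pearson's r of log2 signals was 0.93 between Slc32a1 and Pvalb, 0.91 between Slc32a1 and Gad1 and 0.84 between Sst and Slc6a5, against 0.02 between Sst and Slc32a1 and -0.12 between Sst and Pvalb. These values include the differences between groups and are given as a description. The 3 tested genes most like each member over the 10 arrays, by Pearson's r, were as follows. For Sst they were Actc1 (r = 0.957), Slc19a2 (0.947) and Hs3st4 (0.945), and for Npy they were Foxo1 (0.986), Lrrfip1 (0.978) and Tenm3 (0.955). For Slc6a5 they were Hrk (0.964), Kcna2 (0.963) and the peptide gene Adcyap1 (0.951), which itself rose in knockout cultures. For Slc32a1 they were the Purkinje marker Pcp4 (0.987), Tmem191c (0.984) and Smpx (0.984), and for Gad1 they were Mttp (0.979), Cacng4 (0.975) and Rdh13 (0.972). For Pvalb they were Rgs8 (0.992), Atp2a3 (0.977) and Plxdc1 (0.976), and for Kit they were Megf11 (0.947), Il17d (0.947) and Ankrd6 (0.942).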

How the data were processed

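Gene expression was measured on 10 arrays. The deposited values are signal intensity on a linear scale, made by the authors with MAS5 and GCOS 1.2, per the submitters' processing notes. Every array had a 2% trimmed mean of 500, and no further scaling was applied. Of 45101 probe sets, 64 controls were left out, 34945 carried 1 symbol, 932 several and 9160 none. Of those with 1 symbol, 34741 matched RefSeq GRCm38.p6 by Entrez identifier, which changed 0 symbols. Signals under the 25th percentile (20.9) were set to that value before log2 was taken. A gene was its brightest probe set, and 11405 of 18193 genes with a mean log2 of at least 6.25, the median of all probe sets, were tested.

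A model with 1 mean per group over all 10 arrays was fitted by lmFit and eBayes of limma 3.58.1 under R 4.3.3 (6 residual degrees of freedom), two-sided, with Benjamini-Hochberg adjustment over all genes tested and a threshold of 0.05. It was tested on simulated data. The comparisons were the genotype effect with and without Shh, their average, the Shh effect in each genotype and the interaction. Members and lists were chosen with earlier results of these data known. The labels name no pairs, but arrays with consecutive numbers deviated together from their group means (r over genes 0.120 to 0.278 for the untreated ones, 0.160 for the Shh ones), so a fit with these numbers as a replicate block was run too. Named genes are the 7 measured members, at most 5 list genes past the threshold per list and comparison, list genes that share a step with a member, and the 3 most similar genes of each member. Figures were drawn with matplotlib 3.10.9. The number of arrays limits the precision.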

Additional observations from a re-analysis of the deposited data

How the results depend on the processing

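Most of the results for the 7 members were not called and had no call to lose, so the totals kept do not measure how stable the calls are. Of these results, 390 kept their side of the threshold when 1 array was left out, 24 lost the call and 6 gained it. Among the 390, 22 changed sign, none of them called. Under the other settings 373 kept their side, 27 lost the call and 4 gained it; 10 of the 373, none of them called, changed sign. The other 2 were called results that reversed, both of Slc32a1 under the median of all probe sets of a gene, where its Shh difference was log2 0.34 in knockout and 0.40 in wild type; 3 of its 4 probe sets lay at or near the floor. Members called for the average genotype effect numbered 1 with each probe set on its own and 1 with that median, against 3 as reported. They numbered 2 with the block, no filter, quantile scaling or without the arrays of highest 18S signal. With Shh the genotype count was 0 with the block, each probe set alone, the median, no filter or only the arrays compared, and 2 with a trended, robust prior, against 1. Without Shh it was 1 with that prior, against 0. For the Shh effect in knockout it was 2 with each probe set alone, against 4, and in wild type 2 with each probe set alone, and 3 with the median, no filter or quantile scaling, against 5. Leaving out 1 array gave 2 to 3 members for the average genotype effect, 0 to 2 with Shh, 0 to 2 without, 2 to 4 for Shh in knockout and 1 to 6 in wild type, and 0 for the interaction. The block changed the members called for Npy (average) and Slc6a5 (with Shh) and no other.

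Over all genes, the untreated genotype effect called 43 genes, and 23 with the block, 27 with the median, 82 with the trended prior and 10 without the arrays of highest 18S signal. The effect with Shh called 83, and 50 with the block, 48 with the median, 3 with only the arrays compared, 51 with quantile scaling, 134 with the trended prior and 52 without the highest 18S arrays. The average called 176, and 91 with the median and 80 without the highest 18S arrays. The interaction called 1, and 32 with each probe set alone, 4 with a floor at the 10th percentile and 0 with the block, the median, no filter, quantile scaling or without the highest 18S arrays. Leaving out 1 array gave 19 to 50, 29 to 91, 82 to 219 and 0 to 2 for these comparisons in turn, 1893 to 3193 for Shh in knockout and 2380 to 3752 in wild type. The cause of these changes was not tested.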

Other observations

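Untreated Pvalb signals ran from 607 to 1473, but the difference between knockout and wild type arrays with consecutive numbers was small beside that range. It was log2 0.20 for replicates 2 and 1, -0.32 for replicates 4 and 3 and -0.02 for replicates 6 and 5. The summed Purkinje markers on these arrays were 39591 in knockout replicate 2 and 22888 in wild type replicate 1, 27338 in knockout replicate 4 and 37999 in wild type replicate 3, and 49766 in knockout replicate 6 and 38446 in wild type replicate 5.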
